A study of Mus musculus with 2 samples.

Results

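Mir199a-1, Mir199a-2, Mir199b and Mir214 are the microRNA genes that lie on the strand opposite to the dynamin genes Dnm1, Dnm2 and Dnm3, and they were examined in mouse hippocampus. The 4 genes were taken by name out of the 2202 microRNA genes counted, and all 4 were found in the files. MicroRNA-seq had been performed on total RNA of hippocampal tissue, labelled as a layer of the hippocampus, from male B6CASTF1/J mice aged 36 days, a strain bred as F1 hybrids of C57BL/6J with CAST/EiJ. There was 1 library for each of 2 labelled biological replicates, which share a donor label, and no treatment or other group. Replicate 2 was therefore set against replicate 1, which compares these libraries and not a condition.

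MicroRNAs are cut from hairpin precursors, and either arm of the hairpin can be loaded into the silencing complex, where bases 2 to 8 of the mature sequence, the seed, pair with target transcripts. Mir199a-2 and Mir214 are made from the noncoding transcript Dnm3os, which runs antisense to Dnm3 and is known in mouse for its role in skeletal growth. Both families are typical of mesenchymal cells such as fibroblasts, which in and around brain tissue are found in the meninges and along larger vessels.

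The mature sequences are shown because they decide which reads can be assigned to a single gene. All 4 hairpins matched RefSeq entries on GRCm38.p6, the build called mm10 in the files. The letters are given 5′ to 3′, with the seed in capitals.
miR-199a-5p: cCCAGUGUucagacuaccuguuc
miR-199a-3p: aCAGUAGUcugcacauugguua
miR-199b-3p: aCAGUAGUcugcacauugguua
miR-214-5p: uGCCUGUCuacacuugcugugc
miR-214-3p: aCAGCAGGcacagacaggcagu

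The miR-199a-5p sequence was present in full in 2 hairpins, those of Mir199a-1 and Mir199a-2. The 3p sequence was present in full in 3 hairpins, since miR-199a-3p and miR-199b-3p are the same letters. The sequences used list no 5p arm for Mir199b. The stretch of its hairpin that corresponds to miR-199a-5p, bases 26 to 48, differed from that arm by the substitution C10U. That position is counted from 1 at the 5′ end of the mature sequence, and the base is in capitals here.
Mir199b, bases 26 to 48: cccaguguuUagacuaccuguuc
In contrast, miR-214-5p and miR-214-3p were each found in 1 microRNA gene, Mir214. Among 141767 annotated transcripts, the arms of the 4 genes matched no gene outside microRNA genes other than Dnm3os, and no transcript held a reverse complement. Outside annotated transcripts the genome was not searched.

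The hairpins of the 3 Mir199 genes overlap strongly in sequence. Mir199a-1 and Mir199b shared a run of 28 bases, and Mir199a-2 shared runs of 27 bases with each of the others, whereas Mir214 shared no run longer than 7 bases with any of them. Of all 20-base windows, 33.3% in Mir199a-1, 17.6% in Mir199a-2 and 11.0% in Mir199b also occurred in another microRNA gene, and these windows cover every listed mature arm. The corresponding share in Mir214 was 0 of 91 windows. The count files leave out reads that match several places, and such reads were 46.5% of all reads in replicate 2 and 40.3% in replicate 1. How many of these reads came from Mir199 was not measured.

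**Figure D1:**
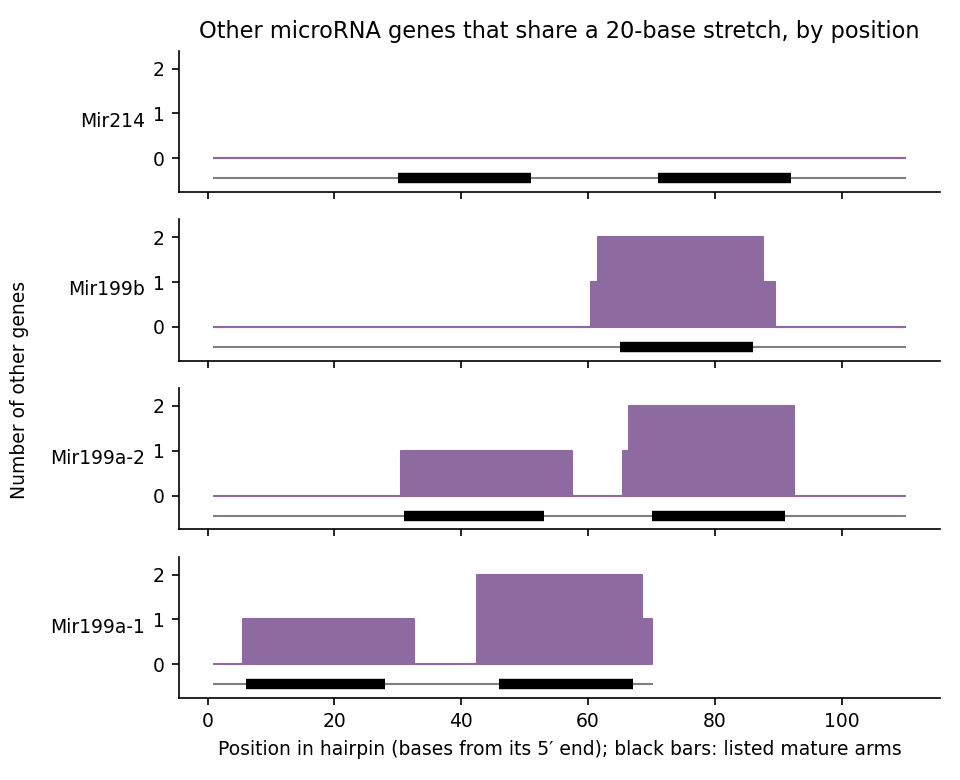
Number of other annotated microRNA genes that share a 20-base stretch (y axis) at each position of the 4 hairpins (x axis, bases from the 5′ end), with the listed mature arms as black bars. The listed arms of the 3 Mir199 genes lie in stretches shared with 1 or 2 other genes, and no position of Mir214 is shared.

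Mir214 was measured clearly in both libraries, and the 3 Mir199 genes were at or near 0. Mir214 (ENSMUSG00000065516.1, chromosome 1, 162223368 to 162223477, plus strand, mm10) had 438 counts in replicate 2 and 195 in replicate 1. In CPM, the count of a gene per 1000000 own-strand counts of the library, this was 83.0 CPM in replicate 2 (95% exact Poisson interval 75.4 to 91.1) and 44.3 CPM in replicate 1 (38.3 to 50.9). The mean was 63.6 ± 27.4 CPM (SD, n = 2). Mir214 ranked 213 of 2202 genes in replicate 2 and 229 in replicate 1, so its rank was similar in both libraries.

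Mir199b (ENSMUSG00000092807.1, chromosome 2, 32318460 to 32318569, plus strand) had 2 counts in replicate 2 and 0 in replicate 1. Mir199a-2 (ENSMUSG00000070126.1, chromosome 1, 162217814 to 162217923, plus strand) had 1 count in replicate 2 and 0 in replicate 1. Mir199a-1 (ENSMUSG00000065547.1, chromosome 9, 21496495 to 21496564, minus strand) had 0 counts in replicate 2 and 1 in replicate 1. None of the 3 exceeded a floor set at 3 counts, which is 0.568 CPM in replicate 2 and 0.681 CPM in replicate 1. The upper end of the Poisson interval of a count of 0 is higher, at 0.699 CPM in replicate 2 and 0.838 CPM in replicate 1. Together the 3 genes held 3 counts in replicate 2 and 1 in replicate 1. Their Poisson intervals overlapped in each library, and Mir199b stood above Mir199a-1 in replicate 2 but below it in replicate 1, so no order among them could be given. The interval of Mir214 lay above all of theirs in both libraries. All intervals reflect counting error alone. They treat reads as independent molecules, which reads copied by PCR and lacking molecular identifiers are not, so the intervals may be too narrow.

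**Figure D2:**
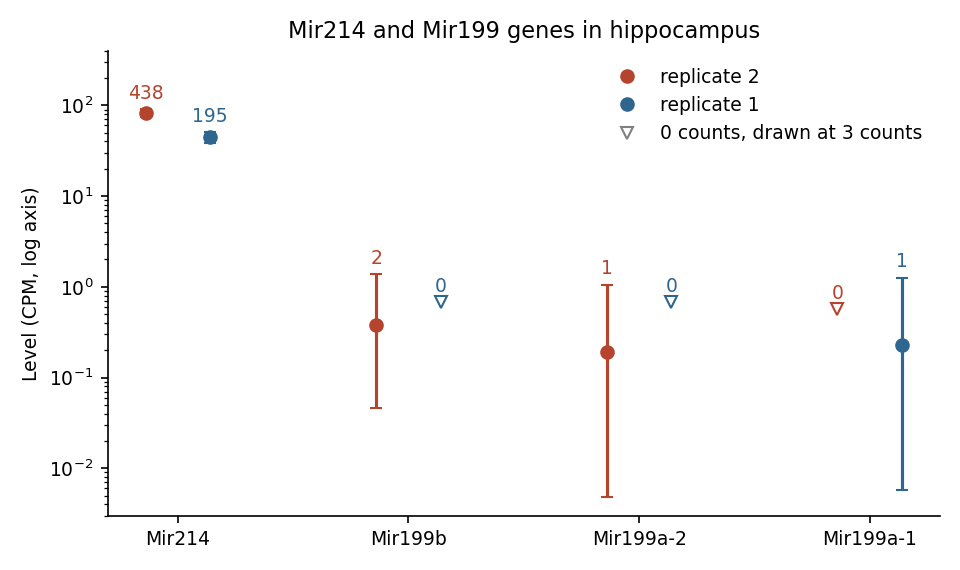
Level of each gene in CPM (y axis, log axis) in replicate 2 and replicate 1, with 95% exact Poisson intervals and the count above each point. Open triangles are genes with 0 counts, drawn at the level of 3 counts. Mir214 stands at 438 and 195 counts, and each Mir199 gene at 2 or fewer.

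A low count was common among genes whose listed arms all recur elsewhere, and also among all genes counted. For 49 microRNA genes with a listed mature sequence, every listed arm was found in full in another annotated gene that does not overlap it, and the 3 Mir199 genes are among these 49. At least 10 counts in each library were reached by 7 of the 49 (14.3%, with a 95% Wilson interval of 7.10 to 26.7), and 38 had 0 in both. Over all 2202 genes, 411 reached that count and 1424 had 0 in both. Mir214 belongs to the 908 genes with no arm found elsewhere, of which 320 reached it (35.2%, 32.2 to 38.4). The median summed count was 0 for the 49 genes and 6 for the 908. In 61 genes with some arms repeated and some not, 40 reached that count (65.6%, 53.0 to 76.3). The Wilson intervals treat genes as independent, which copies such as Mir680-1, Mir680-2 and Mir680-3 are not, so these intervals may be too narrow. The counts of Mir199a-1, Mir199a-2 and Mir199b are thus uncertain as levels of their listed arms. In Mir199b, bases 26 to 48 are not a listed arm, and no base there lay in a window shared with another microRNA gene. Reads from that stretch could therefore be assigned to Mir199b alone, which had 2 counts in replicate 2 and 0 in replicate 1. Few such reads were thus assigned, and how they were aligned was not tested. Whether the family is expressed in this tissue was not answered by these gene counts.

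Mir199a-2 and Mir214 lie in the same host, and their counts differed widely. Dnm3os (chromosome 1, 162217623 to 162225550) has 6 annotated transcripts in GENCODE M21, of which 2 hold both hairpins whole within an exon. The hairpins are 5444 bases apart, with Mir199a-2 near the start of the host and Mir214 downstream. Both also lie in introns of Dnm3, on its opposite strand. Mir199a-1 lies in an intron of Dnm2 and Mir199b in an intron of Dnm1, again on the opposite strand, and neither overlaps a gene on its own strand. In replicate 2 Mir214 had 438 times the counts of Mir199a-2 (95% exact binomial interval 78.2 to 17339, which is wide because Mir199a-2 had 1 count). In replicate 1 Mir199a-2 had 0 counts, and with it set at 3 counts the ratio was 65. This is not a lower limit, since the Poisson interval of 0 counts reached 0.838 CPM there, above the floor of 0.681 CPM. These are ratios of assigned reads: both arms of Mir199a-2 recur in other genes and those of Mir214 do not, so they are not ratios of level.

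**Figure D3:**
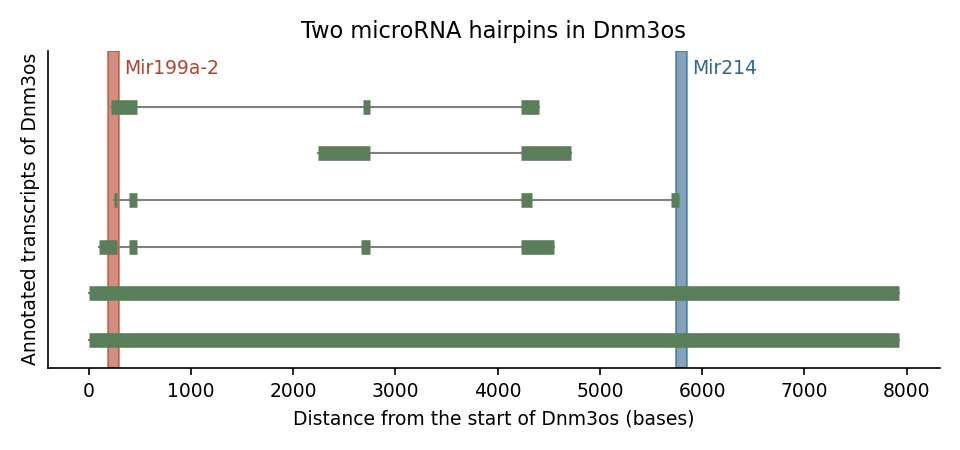
Annotated transcripts of Dnm3os (rows; boxes are exons, lines introns) by distance from the start of the gene in bases (x axis), with the 2 hairpins as vertical bars. The 2 unspliced transcripts, which are drawn lowest, hold both Mir199a-2 and Mir214, and the hairpins lie 5444 bases apart.

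Mir214 was higher in replicate 2 than in replicate 1. The ratio after TMM scaling was 1.85-fold (95% exact binomial interval 1.56 to 2.20), or 0.87 on the log2 scale with 1 CPM added to each library. In the two-sided exact binomial test of the 2 libraries the adjusted p was 6.0e-13, with Benjamini-Hochberg adjustment over the 504 genes whose summed count was at least 10. Mir214 was the only one of the 4 genes with enough counts to be tested, so 1 of 1 was called. Such a call was frequent: 55.8% of the 504 genes differed, and 32.5% were higher in replicate 2 and 23.2% lower. Of those that differed, 164 were higher and 117 lower, and with scaling and test limited to genes of at least 100 counts the split was 122 higher and 130 lower. Of all tested genes 76 had a larger log2 ratio than Mir214, and the middle of the distribution ran from -0.36 to 0.56 (quartiles) with a median of 0.05. Among the 69 genes with summed counts between 317 and 1227, a range set around that of Mir214, 13 had a larger ratio and the quartiles were -0.04 and 0.68.

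The test covers counting error alone, and with enough spread between libraries built into it the call on Mir214 was lost. With an added coefficient of variation of 0.1 the adjusted p of Mir214 was 0.00145 in the exact beta-binomial test, and 30.2% of genes were called. With 0.3 it was 0.798, and 2.78% were called. The coefficient of variation that edgeR estimated between the libraries was 0.430, above both settings. In bulk tissue fewer cells of a type and less RNA per cell cannot be told apart.

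Other microRNAs typical of connective tissue went in both directions between the libraries. Of 11 genes listed for mesenchymal and connective tissue, 9 had enough counts to test, 1 was higher in replicate 2, 4 were lower and 4 did not pass the test, where 32.5% of all tested genes were higher and 23.2% lower. None of the 9 was called with an added coefficient of variation of 0.3. Their median log2 ratio was -0.15, against 0.05 for all tested genes. With DESeq2 size factors none was higher and the same 4 were lower, as in the setting with at least 100 counts. Mir145a, typical of smooth muscle and pericytes, was the one higher gene (log2 ratio 0.18), at 1270 counts in replicate 2 and 922 in replicate 1, and it was not called under those other scalings. Its cluster partner Mir143 was lower after scaling to library size (-0.17), with 29873 counts in replicate 2, the deeper library, and 27794 in replicate 1.

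The other lower genes were Mir140 and Mir455, both known from cartilage, and Mir21a, known from fibrosis and reactive cells. The log2 ratio of Mir140 was -0.50, with 4451 counts in replicate 2 and 5177 in replicate 1. Mir455 had 2801 and 5080 (-1.14), and Mir21a had 6988 and 11084 (-0.94), in the same order. Each of these 3 had more assigned reads than Mir214 in both libraries. Mir140 had 10.2 times the counts of Mir214 in replicate 2 and 26.5 times in replicate 1, and Mir143 had 68.2 and 143 times, so the proportion between Mir214 and these genes was not the same in the 2 libraries.

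The microRNAs of the Hox clusters, which mark posterior body regions, were low. Mir10b had 189 counts in replicate 2 and 125 in replicate 1, fewer than Mir214 in both libraries. Mir10a had 88 and 81 counts, Mir196b 61 and 56, and Mir196a-2 15 and 10, again with replicate 2 given before replicate 1. These 4 did not pass the test between the libraries. Mir615 had 7 counts in replicate 2 and 1 in replicate 1, and Mir196a-1 had 0 in both. Mir196a-1 and Mir196a-2 share 20 bases with each other, so their counts are uncertain.

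Lists of other cell types were read against the same shares, 32.5% of all tested genes higher and 23.2% lower in replicate 2. With an added coefficient of variation of 0.3, Mir200b of the choroid plexus list was the only gene called in any of these lists. In the list for choroid plexus and ciliated epithelium, 8 genes were tested, of which 6 were higher in replicate 2, 1 was lower and 1 did not pass, with a median log2 ratio of 0.98. With DESeq2 size factors 5 were higher. The list summed to 1811 CPM in replicate 2 and 1333 CPM in replicate 1. Its highest genes were Mir204 at 1206 CPM in replicate 2 and 683 CPM in replicate 1, Mir34c at 380 and 550 CPM, and Mir449a at 79.2 and 64.0 CPM. Of its 10 members, Mir449b had 0 counts in both libraries.

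In the vessel wall list, which holds Mir143 and Mir145a too, 2 of 3 tested genes were higher and 1 was lower, and its sum was 43835 CPM in replicate 2 and 16250 CPM in replicate 1. The difference in sum came from endothelial Mir126a, at 37937 CPM in replicate 2 and 9729 CPM in replicate 1. Its antisense partner Mir126b was at 0 in both. The leukocyte list summed to 1124 CPM in replicate 2 and 926 CPM in replicate 1, with 3 of 4 tested genes higher and 1 lower. Its highest genes were Mir150, Mir142 and Mir155, and Mir142b was at 0 in both libraries.

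Red blood cell genes summed to 113 CPM in replicate 2 and 66.8 CPM in replicate 1, with 2 of 3 higher and 1, Mir486, not past the test. With genes of at least 100 counts alone, Mir486 was lower. They were led by Mir451a at 57.6 and 35.2 CPM, Mir144 at 38.1 and 8.63 CPM and Mir486 at 17.8 and 22.9 CPM, replicate 2 before replicate 1. No gene of this list found in the files was at 0. Muscle genes summed to 109 CPM in replicate 2 and 100 CPM in replicate 1, nearly all of it Mir206, and 4 of 8 were at 0 in both, with neither of the 2 tested genes called. The 4 at 0, Mir1a-1, Mir133a-1, Mir133a-2 and Mir133b, each share 20 bases with other genes, as does Mir1a-2, so their counts are uncertain. The part of these cell types in the difference of Mir214 was not tested.

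Neuronal and oligodendrocyte lists, read against the same shares of all tested genes, describe the tissue and do not test its label. Neuronal genes summed to 110306 CPM in replicate 2 and 98948 CPM in replicate 1, led by Mir127, Mir132 and Mir128-1, with 11 of 15 tested genes higher and 2 lower. Mir127 was among the higher genes, but it did not pass with DESeq2 size factors and was lower with genes of at least 100 counts alone, where 10 were higher and 3 lower. In the same list, Mir124a-1 had 8 counts in replicate 2 and 11 in replicate 1, Mir124a-2 had 1 in each, and Mir124a-3 had 0 in both. Oligodendrocyte genes, led by Mir219a-2, Mir338 and Mir219a-1, summed to 5662 CPM in replicate 2 and 5819 CPM in replicate 1, with 1 higher and 1 lower of 3. The higher gene, Mir219a-2, did not pass with DESeq2 size factors and was lower with genes of at least 100 counts alone. The counts of Mir128-1, Mir219a-1 and Mir219a-2 are uncertain, as each has a 20-base stretch in common with another gene. The same holds for Mir128-2, Mir129-1, Mir129-2, Mir138-1, Mir138-2, Mir218-1, Mir218-2 and the Mir124a genes. Mir127 alone had 697 times the counts of Mir214 in replicate 2 and 1245 times in replicate 1.

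**Figure D4:**
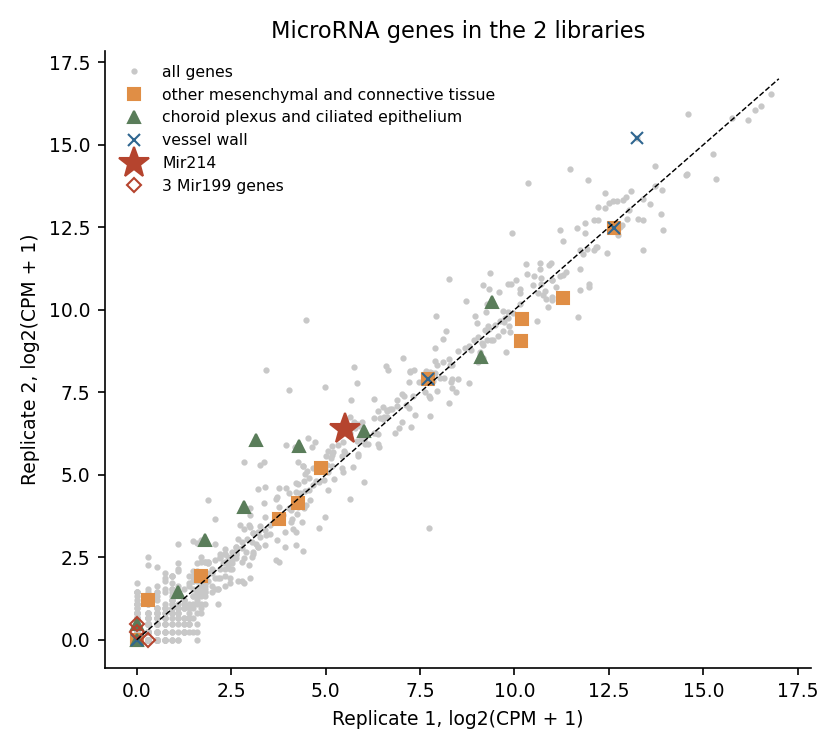
Each microRNA gene by log2(CPM + 1) in replicate 1 (x axis) and replicate 2 (y axis), with the dashed line marking equal levels. Mir214 lies above the line at 83.0 CPM in replicate 2 and 44.3 CPM in replicate 1, most choroid plexus genes lie above it and most other mesenchymal genes on or below it, and the 3 Mir199 genes lie near the origin.

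Genes most like Mir214 over the 2 libraries were Mir29b-2, Mir25 and Mir1193, by Euclidean distance over log2(CPM + 1), with distances of 0.13, 0.20 and 0.20. Mir29b-2 had 400 counts in replicate 2 and 199 in replicate 1, Mir25 had 401 and 217, and Mir1193 had 463 and 171. Mir29b-2 shares 20 bases with Mir29b-1, so its count is uncertain. With 2 points per gene this is a description of similar values only. Among the counted genes with a sequence in the RefSeq table, 1 other carries the seed of a member arm: miR-761 shares that of miR-214-3p. The gene of miR-761, Mir761 (chromosome 4), had 0 counts in both libraries, where the floor of 3 counts is 0.568 CPM in replicate 2 and 0.681 CPM in replicate 1. Its sequence is printed here with the shared seed in capitals, and outside the seed it differs from miR-214-3p.
miR-761: gCAGCAGGgugaaacugacaca
Among the counted genes, no other listed mature sequence shared the seed of either miR-199 arm or of miR-214-5p. Listed sequences without a counted gene were not searched.

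Reads were also counted on the strand opposite to Mir214, the strand of Dnm3. They numbered 7 in replicate 2 and 2 in replicate 1, or 1.57% (95% exact binomial interval 0.635 to 3.21) and 1.02% (0.123 to 3.62) of the reads on either strand of the locus. No annotated microRNA gene overlaps Mir214 on that strand, and the Mir199 genes had 0 opposite-strand reads in both libraries. Such reads were rare at other genes without an annotated partner: of 261 genes with 100 or more own-strand counts in replicate 2, 17 had any, and of 236 in replicate 1, 12 had any. Mir214 had the highest share of the 261 in replicate 2, where Mir3086 (1.55%), Mir6944 (1.28%) and Mir7240 (1.12%) followed within its interval. In replicate 1 it ranked below Mir7240 (1.98%), Mir3086 (1.83%) and Mir574 (1.04%). These genes were named after their values were seen.

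**Figure D5:**
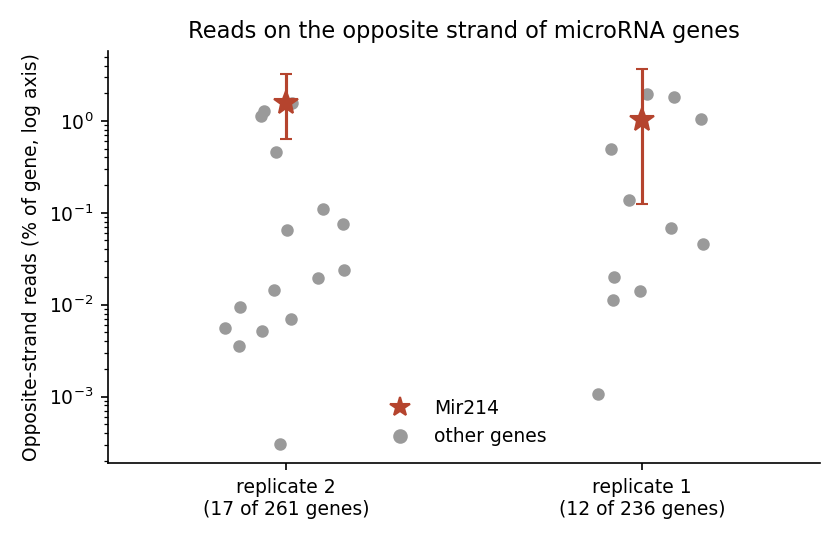
Share of a gene's reads that lie on its opposite strand (y axis, percent, log axis) in replicate 2 and replicate 1, for genes with 100 or more own-strand counts, no annotated antisense microRNA gene and at least 1 opposite-strand read. The star is Mir214 with its 95% exact binomial interval, at 1.57% in replicate 2 and 1.02% in replicate 1, among the highest genes in both.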

How the data were processed

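MicroRNA-seq of 2 hippocampus libraries was used. The authors deposited raw counts for each gene, with no normalization. Deposited notes name mm10 as the build and GENCODE M21 as the annotation behind these counts; the aligner is not given in the sources used here. Column meaning (either strand, own strand, opposite strand) was read from the values, and own-strand counts were used. Lines naming no gene were left out. Their share was 65.4% for replicate 2 and 64.7% for replicate 1, which left 5279877 and 4404040 assigned counts. CPM is relative to these totals.

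The libraries were compared over all genes with 10 or more counts in total by a two-sided exact conditional binomial test (scipy 1.17.1) with TMM scaling (edgeR 4.0.16, R 4.3.3), Benjamini-Hochberg adjustment and a threshold of 0.05. With 1 group there is no contrast that edgeR's quasi-likelihood test could use. The test was tested on simulated data. Alternatives used DESeq2 1.42.0 size factors, other minimums, pseudocounts, strand columns and stretch lengths. Whether the replicates are separate animals is not stated, and the p-values cover counting error in these libraries alone.

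Sequences come from RefSeq (GRCm38.p6) and hairpins from GENCODE M21; 2202 gene identifiers matched. Both alleles of the cross were mapped to 1 reference, and its effect was not tested. Named genes are the 4 members, genes sharing a seed, overlapping genes, the 3 nearest genes over both libraries, the connective tissue list and the 3 highest genes of each marker list; Mir486b was not matched. The members and lists were chosen with earlier results of these data known.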

Additional observations from a re-analysis of the deposited data

Results flagged for a closer look

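Mir214 had 7 reads on its opposite strand in replicate 2, above the floor of 3 counts, in a column that the comparison of the libraries did not use. In replicate 1 there were 2, which is below that limit. In human, a microRNA hairpin is annotated on the strand opposite to the gene of miR-214; the sequence and length of the reads seen here were not analysed, and their source was not tested.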

How the results depend on the processing

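The log2 ratio of Mir214 was positive and past the threshold in the 5 alternatives that change the counts or the scaling, from 0.74 (genes of at least 100 counts) to 0.94 (counts on either strand). The pseudocounts and the added spread cannot turn its sign. With an added coefficient of variation of 0.3 the ratio of 0.87 no longer passed (adjusted p = 0.798 in the exact beta-binomial test). Over all 9 alternatives, adjusted p ran from 6.9e-15 to 0.798. The number of genes called was 281, and it fell to 152 and 14 with an added coefficient of variation of 0.1 and 0.3; the added spread widens the test by construction. With a minimum of 100 counts, 122 were higher and 130 lower in replicate 2, against 164 and 117 with the minimum of 10. The ratio of Mir214 to Mir199a-2 moved little with either-strand counts. Per 1000000 reads of the whole file the mean of Mir214 was 22.2. At stretches of 16, 18 and 22 bases each Mir199 gene still shared with 2 other genes and Mir214 with 0. Without replicate 1 the level of Mir214 was 83.0 CPM, and without replicate 2 it was 44.3 CPM. The log2 ratios of the 3 Mir199 genes were not computed, since each had fewer than 10 counts and both libraries lay at or under 3 counts. At this depth the floor of 3 counts is 0.568 CPM in replicate 2 and 0.681 CPM in replicate 1.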

Other observations

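The 7 genes whose listed arms all recur in another gene and that still had 10 or more counts in both libraries were Mir219a-2, Mirlet7c-2, Mirlet7a-1, Mir129-1, Mir9-3, Mir3074-1 and Mir9-1. Mir219a-2 had the most, with 18950 counts in replicate 2 and 15119 in replicate 1, and Mir9-1 the fewest, with 79 and 31. A full match of every listed arm elsewhere was thus not always accompanied by a count near 0, as it was for the 3 Mir199 genes. For Mir219a-2, Mir129-1 and Mir3074-1, as for Mir199b, only 1 arm was listed, so the other arm did not enter this grouping. Mirlet7c-2, Mirlet7a-1, Mir9-3 and Mir9-1 had 2 listed arms each.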
